A study of Mus musculus with 6 samples.

Results

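The glutathione S-transferase family was followed through 10 genes in mouse liver tumours: Gsta3 and Gsta4 of the alpha class, Gstm1, Gstm2, Gstm3, Gstm4 and Gstm6 of the mu class, Gstp1 of the pi class, Gstt1 of the theta class, and the membrane-bound Mgst3. The members were all probes, other than control spots, whose accession maps to 1 of these 10 symbols. They came to 13 probes, 2 each for Gsta3, Gstm1 and Gstm6 and 1 for each other gene. All 10 genes were well above background on all 6 arrays, and they are 10 of the 27412 features tested.

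Frozen tumours of C57BL/6 mice gave the RNA, and each was read on its own 1-colour Agilent array, with 2 tumours in each of 3 groups. Albumin-derived hepatocellular carcinomas (HCC), without a component called CLC, came from Alb-AID mice at 90 weeks of age. Epcam-derived HCC came from Epcam-AID mice that were given tamoxifen and then a diet with 0.1% DDC for 8 months, 2 tumours without CLC and 2 with it, and the series title traces tumours of this kind to ductular progenitor cells. The labels expand neither AID nor CLC, and they give no sex and no age for the Epcam-AID mice. They also give no untreated or DDC-free Epcam-AID tumour and no DDC-fed Alb-AID tumour. Line, tamoxifen and diet therefore differ together between the Albumin-derived and the Epcam-derived tumours and cannot be told apart, and whether age differs too is not known. No label says that the 2 tumours of a group came from separate mice, so the p-values measure only the spread between these samples, which may be technical. Both Albumin-derived arrays lay on slide 1, both Epcam-derived arrays without CLC on slide 2, and the arrays with CLC on 1 of each.

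Glutathione S-transferases join the tripeptide glutathione to electrophiles such as drug metabolites, carcinogens and lipid peroxidation products, which are then pumped out of the cell and broken down to mercapturates. The liver is rich in alpha and mu class enzymes. Many of the genes are induced by electrophiles through the transcription factor NRF2, which acts at antioxidant response elements, and several belong to clusters of close copies. The pi class enzyme is a classic marker of early lesions in rat liver.

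Signal is given as a multiple of the 75th percentile of all spots on the same array, a scale on which 1 probe can be followed across arrays but 2 probes cannot be ranked against each other. That percentile was 285 to 315 fluorescence units on slide 1 and 424 to 488 on slide 2. Spots well above background made up 54.1% to 58.4% on slide 1 and 64.8% to 66.2% on slide 2, and no spot was saturated. Across all features, limma at an adjusted p of 0.05 called 67 in Epcam-derived tumours without CLC against Albumin-derived tumours, 17 in those with CLC against Albumin-derived tumours, 0 with against without CLC (954 at an unadjusted p under 0.05), and 223 for both Epcam-derived groups against Albumin-derived tumours. These comparisons share arrays. All 8 hepatocyte markers examined, Alb, Ttr, Apoa1, Apob, Serpina1a, Tat, Cps1 and Hnf4a, were well above background on every array.

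Upstream sequence was at hand for 9 of the 10 genes, as 13 windows of 250 bases before a transcription start, from RefSeq on GRCm38.p6; Gsta4 had no entry. The windows were searched on both strands for the antioxidant response element core TGACNNNGC, the xenobiotic response element core GCGTG and the AP-1 site TGAGTCA, the last added after the sequences had been seen. Antioxidant cores stood in 1 of 13 windows of the members, that of Gsta3 (7.69%), against 10.2% of all 32851 windows. Xenobiotic cores stood in 4 of 13 (30.8%, against 28.2% of all), 1 each of Gstp1 and Mgst3 and 2 windows of Gstm1 that overlap and hold the same match. The AP-1 site stood in 1 of 13, that of Gstp1 (7.69%, against 4.46%). The shares are close to those of all windows, and a match is a string of letters, not a measured site.

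The stretches printed here were chosen because the alpha gene Gsta3 held the only antioxidant core among the members, and because the neighbours Gstp1, Gstp2 and Gstp3 differed in signal as described further on. They run 5′ to 3′ on the strand of the gene, in lower case, with the antioxidant core (Gsta3) or the AP-1 site (Gstp1 and Gstp2) in capitals. Gsta3 is chr1:21240418-21240517 on the plus strand, positions -167 to -68 from the start. Gstp1 is chr19:4037913-4038012, Gstp2 is chr19:4042222-4042321 and Gstp3 is chr19:4059448-4059547, each on the minus strand at positions -100 to -1.
Gsta3: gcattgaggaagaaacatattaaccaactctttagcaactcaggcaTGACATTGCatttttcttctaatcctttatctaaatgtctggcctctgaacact
Gstp1: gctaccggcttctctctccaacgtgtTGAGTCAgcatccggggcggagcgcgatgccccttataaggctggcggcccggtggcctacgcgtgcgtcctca
Gstp2: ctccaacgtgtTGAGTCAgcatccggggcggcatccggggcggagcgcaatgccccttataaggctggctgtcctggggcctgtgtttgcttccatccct
Gstp3: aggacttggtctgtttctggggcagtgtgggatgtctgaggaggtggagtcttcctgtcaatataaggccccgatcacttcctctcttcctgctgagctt
The core of Gsta3 began at -121. The AP-1 site began at -74 in Gstp1 and at -89 in Gstp2, and the printed stretch of Gstp3 held none. Over their best local alignment, 232 bases long, the windows of Gstp1 and Gstp2 were 88.8% identical, while those of Gstp1 and Gstp3 aligned over only 26 bases.

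Most of the 10 members gave more signal in Epcam-derived than in Albumin-derived tumours. They were chosen with earlier results of these data known, so the counts describe these genes and are no test of the family. Taking both Epcam-derived groups against the Albumin-derived one, the log2 difference was above 0 for 10 of 10 members, as for 52.3% of all features, and the median was 1.01 against 0.03 over all features. Leaving out 1 array gave member medians from 0.68 to 1.25. The lowest was without Albumin-derived replicate 2, with 8 of 10 higher. The 4 Epcam-derived arrays all lay above both Albumin-derived arrays for 8 of 10 members, against 17.6% of all features. In each count Gstm6 enters by its probe with the higher mean. Its other probe gave 0.0004 ± 0.30 (SE, in a fit across all probes), and there the groups overlapped. No member passed the threshold (0 of 10, against 0.814% of all features), and 7 of 10 had an unadjusted p under 0.05 in the higher direction, against 11.7%. The smallest adjusted p among the members was 0.0787, for Mgst3 (limma).

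**Figure D1:**
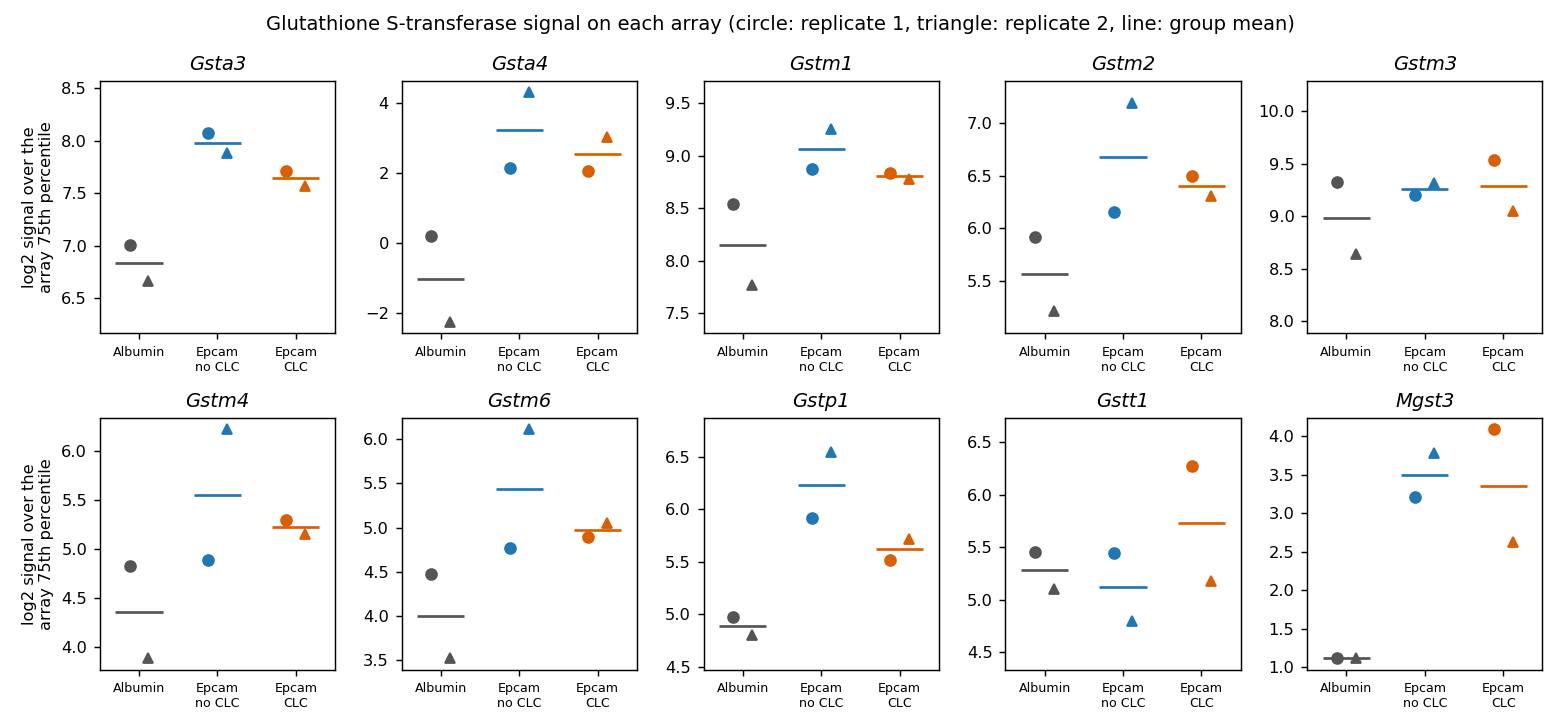
Log2 signal over the array 75th percentile (vertical axis, 1 panel per gene with its own range) for the 10 members in the 3 groups of 2 tumours; circles are replicate 1, triangles replicate 2 and lines group means. All Epcam-derived points lie above both Albumin-derived points for 8 genes, and the groups overlap for Gstm3 and Gstt1.

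Gsta3 and Gsta4 encode alpha class enzymes; mouse Gsta3 is known for conjugating the epoxide of aflatoxin, and Gsta4 for conjugating 4-hydroxynonenal, a product of lipid peroxidation. Gsta3 stood at 128 and 101 times the 75th percentile in Albumin-derived replicates 1 and 2. The Epcam-derived replicates gave 269.6 and 237 without CLC and 209.6 and 190.4 with CLC. Its groups were fully separated, in the order Albumin-derived, with CLC, without CLC. On the log2 scale the difference was 1.15 ± 0.27 (SE, n = 2 arrays per group) without CLC against Albumin-derived and 0.81 ± 0.27 with CLC against Albumin-derived, with limma adjusted p = 0.123 and 0.244. The second Gsta3 probe, in a fit across all probes, gave 1.21 ± 0.30 and 0.98 ± 0.30.

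Gsta4 had the widest range of the 10 members. It stood at 1.16 and 0.210 times the 75th percentile in Albumin-derived tumours. Without CLC the Epcam-derived values were 4.39 and 19.8, and with CLC 4.20 and 8.27. Replicates of a group differed by 5.50-fold, 4.51-fold and 1.97-fold, yet the highest Albumin-derived value lay below the lowest Epcam-derived value. The log2 difference was 4.24 ± 1.05 (SE, n = 2 per group; limma adjusted p = 0.135) without CLC and 3.58 ± 1.05 (0.214) with CLC, each against Albumin-derived. For both Epcam-derived groups together it was 3.91 ± 0.91, a fold of 15.0 with a 95% interval of 1.65 to 6.17 on the log2 scale.

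The mu class genes lie side by side on chromosome 3 in the order Gstm5, Gstm7, Gstm6, Gstm3, Gstm2, Gstm1, Gstm4, and their transcripts are alike enough that a probe may take up RNA of a neighbour, which was not tested. Gstm1, a major hepatic enzyme of the class, stood at 373 and 218 times the 75th percentile in Albumin-derived tumours. Without CLC the values were 469.8 and 612, and with CLC 457 and 439.7. Its groups did not overlap between origins, and the 2 tumours with CLC lay within 1.04-fold of each other. Against Albumin-derived, the log2 difference was 0.91 ± 0.35 (SE, n = 2 per group) without CLC and 0.65 ± 0.35 with CLC (limma adjusted p = 0.235 and 0.429). A second Gstm1 probe gave 1.11 ± 0.45 and 0.84 ± 0.45.

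Gstm2 stood at 60.2 and 37.0 in Albumin-derived tumours, 71.1 and 147 without CLC, and 90.5 and 79.2 with CLC, again in multiples of the 75th percentile. Gstm4 stood at 28.3 and 14.7, 29.6 and 74.9, and 39.4 and 35.6 in the same order. Gstm6 stood at 22.3 and 11.5, 27.2 and 69.2, and 29.7 and 33.2. All 3 mu class genes shared a shape: Albumin-derived replicate 2 was lowest, Albumin-derived replicate 1 and Epcam-derived replicate 1 without CLC were close, and Epcam-derived replicate 2 without CLC was highest. Their log2 differences without CLC against Albumin-derived were 1.11 ± 0.45, 1.20 ± 0.54 and 1.44 ± 0.55 (SE, n = 2 per group), and with CLC 0.84 ± 0.45, 0.87 ± 0.54 and 0.97 ± 0.55. Their limma adjusted p lay between 0.233 and 0.490.

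The 2 probes of Gstm6 disagreed. The second probe stood at 26.3 and 15.0 in Albumin-derived tumours, 16.2 and 18.0 without CLC, and 25.2 and 21.1 with CLC, so the groups overlapped. Its log2 difference was -0.22 ± 0.35 without CLC and 0.22 ± 0.35 with CLC against Albumin-derived, where the tested probe gave 1.44 and 0.97. Without CLC the probes thus differed in sign, and with CLC both were above 0 by different amounts.

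Gstm3 was the mu class member with the smallest difference. It stood at 645 and 399 times the 75th percentile in Albumin-derived tumours, against 589.9 and 637 (Epcam-derived, no CLC) and 744 and 529.6 (with CLC). Albumin-derived replicate 1 lay among the Epcam-derived values. Its log2 difference from Albumin-derived was 0.27 ± 0.35 without CLC, with a 95% interval of -0.59 to 1.14, and 0.31 ± 0.35 with CLC (SE, n = 2 per group; limma adjusted p = 0.687 and 0.705). Without Albumin-derived replicate 2 the differences were -0.073 and -0.038, so their sign rests on that array.

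Gstp1 encodes the pi class enzyme, which also binds the stress kinase JNK. It stood at 31.4 and 27.8 times the 75th percentile in Albumin-derived tumours. The Epcam-derived values were 60.4 and 93.3 without CLC, and 45.8 and 52.5 with it. Its 3 groups were separated, in the same order as those of Gsta3. The log2 difference was 1.34 ± 0.31 without CLC and 0.73 ± 0.31 with CLC against Albumin-derived (SE, n = 2 per group; limma adjusted p = 0.123 and 0.332). These are folds of 2.54 and 1.66.

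Gstp1 and its neighbour Gstp2 on chromosome 19 are near-identical copies, so each probe may take up RNA of the other, which was not tested. Gstp2 stood at 331 and 298 in Albumin-derived tumours, 388 and 398 without CLC, and 378 and 341 with CLC, and its log2 difference for both Epcam-derived groups against Albumin-derived was 0.26 ± 0.21 (SE; limma adjusted p = 0.507). Gstp3, the next gene, went the other way: 16.6 and 19.6 in Albumin-derived tumours, 4.96 and 1.45 without CLC, and 2.29 and 1.17 with CLC. Its log2 difference was -3.11 ± 0.56 (SE; limma adjusted p = 0.0719), and both Albumin-derived arrays lay above all 4 others. The 3 pi class neighbours thus gave 1.04 ± 0.27, 0.26 ± 0.21 and -3.11 ± 0.56 in the same comparison.

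Gstt1 encodes the theta class enzyme that acts on small halogenated compounds. It stood at 44.0 and 34.3 times the 75th percentile in Albumin-derived tumours, 43.7 and 27.8 without CLC, and 77.4 and 36.3 with CLC. All groups overlapped, and only replicate 1 with CLC stood above the rest. Its log2 difference from Albumin-derived was -0.16 ± 0.46 without CLC, with a 95% interval of -1.30 to 0.99, and 0.45 ± 0.46 with CLC (SE, n = 2 per group; limma adjusted p = 0.874 and 0.678). The first of these turned to 0.15 with quantile normalization, to 0.16 in the authors' value table and to 0.94 with slide as a block.

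Mgst3 belongs to the membrane-bound family that also holds leukotriene and prostaglandin enzymes, and reduces lipid hydroperoxides. It stood at 2.17 and 2.19 times the 75th percentile in Albumin-derived tumours, 9.26 and 13.7 without CLC, and 17.0 and 6.16 with CLC. The Albumin-derived replicates differed by 1.01-fold, and the lowest Epcam-derived value, replicate 2 with CLC, was well above them. Mgst3 differed on the log2 scale by 2.37 ± 0.52 without CLC and 2.23 ± 0.52 with CLC (SE, n = 2 per group; limma adjusted p = 0.115 and 0.155), and 2.30 ± 0.45 for both groups, a fold of 4.93. In the authors' value table that last difference was 2.62 and passed (adjusted p = 0.0492), where the median of all features was also shifted by 0.35.

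**Figure D2:**
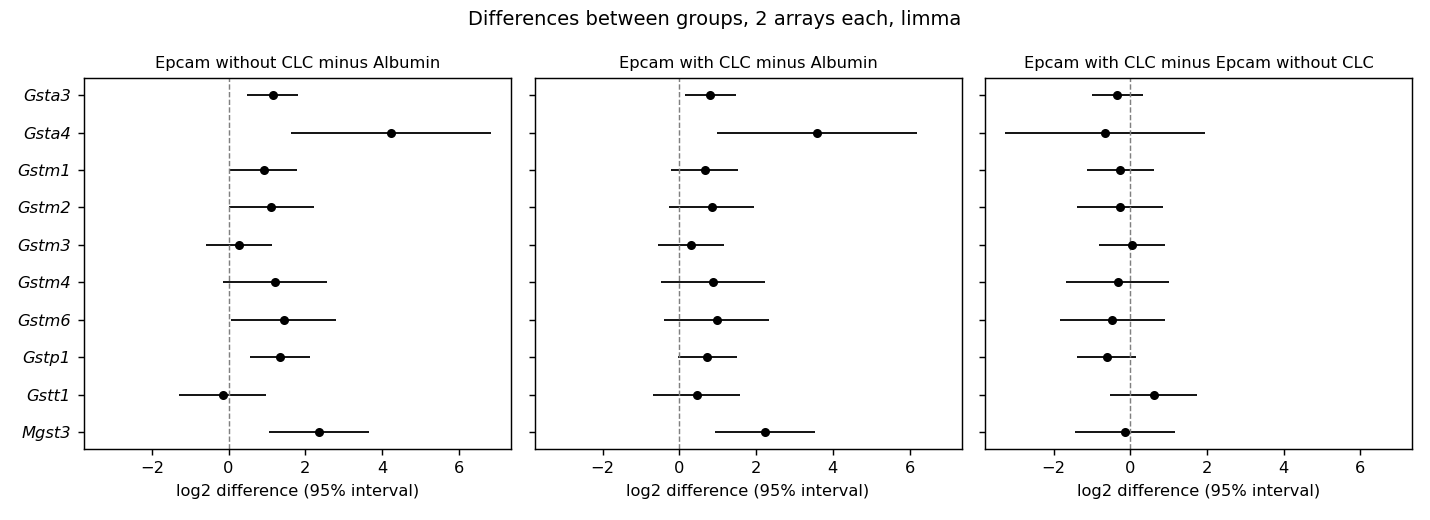
Log2 difference (horizontal axis, points) with its 95% interval (lines) for each member in 3 comparisons of 2 arrays against 2, from limma. Points lie right of the dashed zero line for 9 of 10 members without CLC against Albumin-derived and for 10 of 10 with CLC against Albumin-derived, while 8 of 10 lie left of it with against without CLC.

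Each Epcam-derived group was also set against the Albumin-derived tumours by itself. Without CLC, 9 of 10 members were higher (53.5% of all features) and 8 of 10 did not overlap (30.4% of all features), with a median log2 difference of 1.18 against 0.06 over all features. Of the 10, 7 had an unadjusted p under 0.05 (11.7% of all features) and 0 of 10 passed after adjustment (0.244%). With CLC, 10 of 10 members were higher (49.3%), 8 of 10 did not overlap (23.8%), and the median was 0.83 against -0.01. There 3 of 10 had an unadjusted p under 0.05 in the higher direction (7.95%) and 0 of 10 passed after adjustment (0.062%). Both sets of values share the Albumin-derived arrays, and both count Gstm6 by its tested probe alone, from which its other probe differed.

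The slide could be kept out of only part of these values. On slide 1 alone, replicate 1 with CLC against both Albumin-derived arrays gave a member median of 0.91, with 10 of 10 higher and single values from 0.55 (Gstm3) to 3.09 (Gsta4). With slide as a block the median without CLC against Albumin-derived was 1.28, which rests on the CLC arrays to link the slides, and no feature of the array passed in that fit.

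Between tumours with and without CLC no member passed the threshold. The median of the members was -0.30 (all features -0.06), 2 of 10 were higher with CLC (43.1% of all features), and the groups did not overlap in the lower direction for 3 of 10, namely Gsta3, Gstm1 and Gstp1 (19.8% of all features). Single log2 differences with against without CLC ran from -0.66 ± 1.05 (Gsta4) to 0.60 ± 0.46 (Gstt1), with -0.61 ± 0.31 for Gstp1 and -0.34 ± 0.27 for Gsta3 (SE, n = 2 per group). The count past the threshold was 0 of 10 (limma adjusted p of 0.999 for each; 0% of all features), and 0 of 10 had an unadjusted p under 0.05 (3.48%). The 95% interval for Gstp1 was -1.39 to 0.16 and that for Gsta4 -3.27 to 1.95, so the interval for Gsta4 holds differences past 2-fold in either direction. Without Epcam-derived replicate 2 without CLC the median turned to 0.18, with 7 of 10 higher. Within slide 2 it was -0.38, with 1 of 10 higher.

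The spread inside the groups was itself patterned. Albumin-derived replicate 2 was the lowest of the 6 arrays for 8 of 10 members, and replicate 1 was the higher of that pair for 9 of 10. Epcam-derived replicate 2 without CLC was the highest array for 6 of 10 members, and replicate 1 with CLC for 3 of 10. On the scale centred on each gene's own mean, the member median ran from -0.96 and -0.31 (Albumin-derived replicates 2 and 1) through 0.10 to 0.27 (both with CLC, and 0.14 for replicate 1 without CLC) to 0.98 (replicate 2 without CLC). Taking each gene's signed difference between the 2 replicates of a group, the median over the members was 0.70 (Albumin-derived), 0.60 (without CLC) and 0.14 (with CLC) in size. Over all features it was 0.00, 0.03 and 0.02. Differences of opposite sign cancel in such a median, so it shows a shared shift and not the usual replicate gap of a feature.

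The members did not all follow 1 profile. The root mean square log2 distance from the member median profile over the 6 arrays was smallest for Gstm2 (0.0833) and under 0.32 for Gstm4, Gstm1, Gstp1, Gstm6 and Gsta3. It was 0.44 for Gstm3, 0.75 for Mgst3, 0.77 for Gstt1 and 1.56 for Gsta4.

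Of 21 further genes of the family and related prostaglandin enzymes, 17 were on the array by name and 16 were measured, and for both Epcam-derived groups against Albumin-derived tumours 8 of the 16 were higher and 8 lower, with a median of 0.10. These counts depend on the probe taken: among the lower genes, the tested probe of Ptges gave -0.81 where its other 2 gave 1.19 and 1.32, and that of Gstm5 gave -0.85 where its other gave 0.72. Among the higher genes, Gsto2 was well above background only in tumours without CLC. Microsomal Mgst2 had the largest value, standing at 0.0519 and 0.0674 in Albumin-derived tumours, 5.85 and 26.0 without CLC, and 0.124 and 1.26 with CLC. Its log2 difference was 5.22 ± 1.05 (SE, limma adjusted p = 0.0810), but 3.45 with normexp and 2.71 with slide as a block. The Albumin-derived signals of Mgst2 lay near the faintest ones well above background, so the size of its difference is uncertain. Gsta2, an alpha class neighbour of Gsta4 on chromosome 9, stood at 28.0 and 1.88, 130.2 and 335, and 130.6 and 184 in the same order, a difference of 4.63 ± 1.09 (limma adjusted p = 0.103). Gstp3 was the lowest, as given above. None of the 16 passed (0.814% of all features did). Over all 26 measured genes, members included, 18 were higher and 8 lower, with a median of 0.62.

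**Figure D3:**
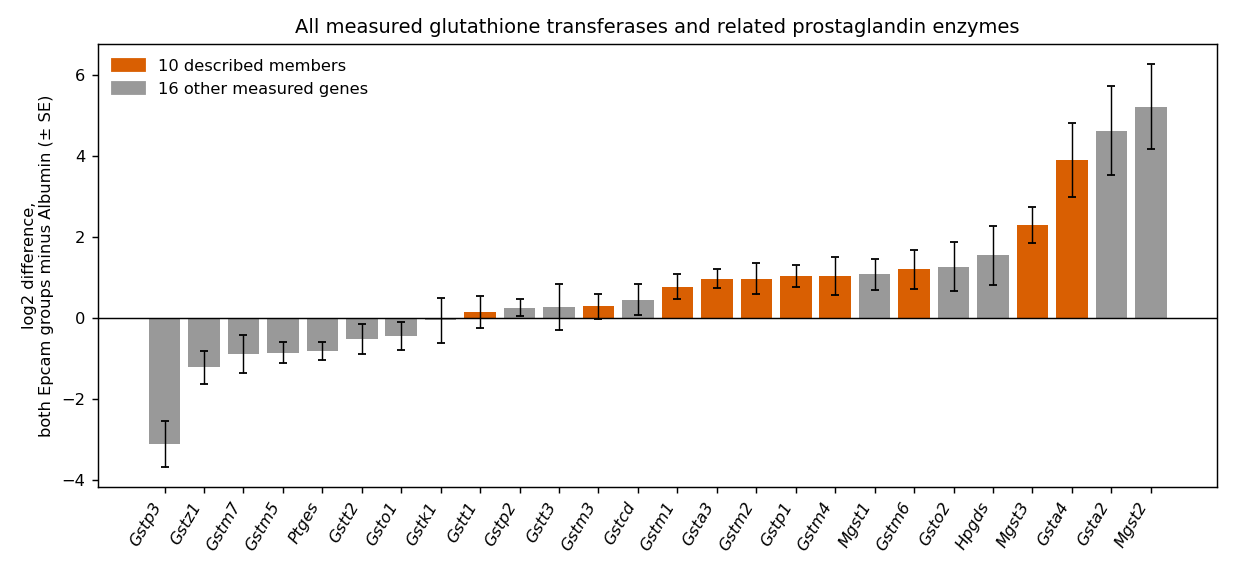
Log2 difference of both Epcam-derived groups minus the Albumin-derived group (vertical axis, bars ± SE) for all 26 measured genes, the 10 members in orange and the 16 others in grey. The bars run from -3.11 for Gstp3 to 5.22 for Mgst2, and 18 of the 26 are above 0. These are all 10 orange bars, for members chosen with earlier results known, and 8 of 16 grey bars.

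Steps before and after conjugation were read from lists. Glutathione supply and NRF2 control, 10 genes all measured, had a median log2 difference of 1.23 for both Epcam-derived groups against Albumin-derived tumours. Of these, 8 of 10 were higher (52.3% of all features) and 0 of 10 passed the threshold (0.814%). Nqo1, a quinone reductase widely used as an NRF2 target, differed by 2.75 ± 0.41 and Srxn1, which repairs oxidised peroxiredoxins, by 2.02 ± 0.38 (SE; limma adjusted p = 0.0569 and 0.0740). Nqo1 passed with normexp, with an intensity trend and in the authors' value table (limma adjusted p from 0.0330 to 0.0465). In the other 14 of 17 alternatives it did not, as with slide as a block (limma adjusted p = 0.373) and with no filter on dim probes (0.176). Gclc, the rate-limiting enzyme of glutathione synthesis, stood at 24.5 and 14.8 in Albumin-derived tumours, 62.1 and 170.0 without CLC, and 90.0 and 99.6 with CLC. Its difference was 2.37 ± 0.47 (limma adjusted p = 0.0787). For Nfe2l2, which encodes NRF2, the log2 difference was 0.09 ± 0.26. Gss, also of glutathione synthesis, gave -0.07, with 0.05 from its second probe, and the lowest value of the list was -0.48.

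Of 14 genes of conjugate export and the mercapturate route, 3 (Ggt5, Ggt7 and Dpep1) were not well above background on either Albumin-derived array and were kept through an Epcam-derived group, so the count of 10 of 14 higher and the median of 0.83 are given as a description only. Abcc3, a pump that exports glucuronide and glutathione conjugates towards the blood, was the 1 gene of these lists that passed the threshold (1 of 14, against 0.252% of all features in the higher direction). It stood at 5.98 and 8.42 times the 75th percentile in Albumin-derived tumours, 44.3 and 83.3 without CLC, and 43.7 and 38.0 with CLC, with no overlap. The log2 difference was 2.81 ± 0.34 (SE; limma adjusted p = 0.0422), a fold of 7.01, and its second probe gave 3.12. The Abcc3 call was lost when any 1 of the 6 arrays was left out (limma adjusted p from 0.0601 to 0.171, differences from 2.56 to 3.06), with slide as a block (0.290), with the replicate number as a block (0.0647), with no filter on dim probes (0.143) and with symbols only (0.0550). Ggt5 and Dpep1, enzymes that trim conjugates, were not well above background in Albumin-derived tumours (nor Ggt5 in replicate 1 with CLC) and at least 2.01-fold and 4.02-fold higher in Epcam-derived ones, as bounds against the lowest signal well above background. As these genes passed the filter only through Epcam-derived arrays, the bounds too are a description only. The 5 xenobiotic receptors Nr1i2, Nr1i3, Ahr, Ppara and Rxra had a median of 0.01, with 3 of 5 higher and 0 of 5 past the threshold. The smallest p were those of Ahr, the dioxin receptor, at -0.39 ± 0.38, and of Nr1i2, the pregnane X receptor, at 0.38 ± 0.43 (SE; limma adjusted p = 0.580 and 0.632), and both overlapped between origins.

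**Figure D4:**
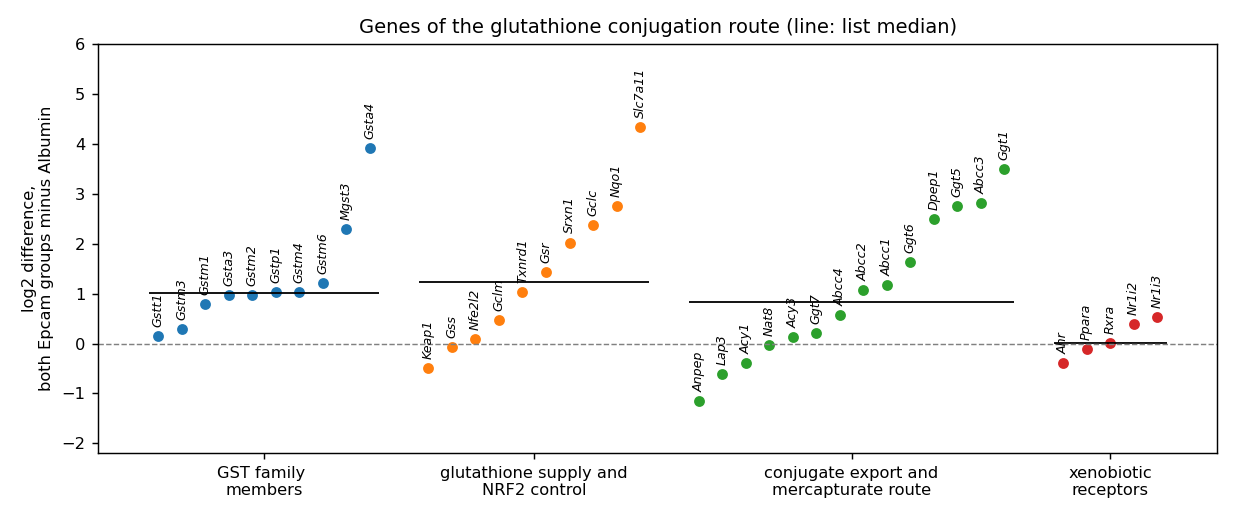
Log2 difference of both Epcam-derived groups minus the Albumin-derived group (vertical axis) for each gene (points) of the conjugation route lists, with the list median as a line. Medians are 1.01 for the 10 members, 1.23 for glutathione supply and NRF2 control, 0.83 for export and mercapturates (3 genes of which were dim in Albumin-derived tumours) and 0.01 for xenobiotic receptors.

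Each array measured a whole piece of tumour, so fewer cells of a type and less RNA per cell cannot be told apart. The 8 hepatocyte markers summed to 3035 to 3622 times the 75th percentile in Albumin-derived tumours, 1934 to 2184 without CLC and 1728 to 2406 with CLC; all 8 were lower in both Epcam-derived groups together and 0 of 8 passed. Pericentral hepatocyte markers, which mark a zone where several of these enzymes are abundant, summed to 103 to 135, 36.0 to 43.8 and 125 to 142 in the same order. Against Albumin-derived tumours the genes did not move as one. Without CLC against Albumin-derived, the log2 difference was -3.69 for Rgn, -1.62 for Cyp2e1 and -1.53 for Lgr5, against 0.77 for Glul and 1.06 for Oat, and 0 of 5 passed. Lgr5 was well above background on only 3 arrays and on no array without CLC, so its value compares dim signals. Bile duct markers summed to 5.20 to 38.5, 30.2 to 44.0 and 60.4 to 108.5, and 4 to 7 of 7 were well above background. Macrophage markers summed to 21.7 to 37.4, 39.8 to 54.4 and 57.0 to 79.8, with 5 of 6 higher and 0 of 6 called. The hepatocyte and macrophage sums thus did not overlap between Albumin-derived and Epcam-derived arrays, and those of the other lists did. Such a sum is weighted to its brightest probes. By single gene, 5 of 8 hepatocyte markers lay lower without overlap (4981 of 27412 features did). For macrophages, 2 of 6 markers lay higher without overlap (17.6% of all features). The macrophage median overlapped between origins, at 1.04 in Albumin-derived replicate 1 and 1.01 in replicate 1 without CLC (log2). The sums for T and NK cells (15.5 to 45.6 over all arrays), B and plasma cells (0.413 to 1.35), endothelium (6.70 to 28.2), stellate cells and fibroblasts (33.8 to 98.0) and erythroid cells (75.8 to 724) had ranges that crossed between origins, and 0 markers of any list were called. The part of these cell types in the transferase values was not tested.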

How the data were processed

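The members and gene lists were chosen with earlier results of these data known. The deposited scanner files hold, per the file headers, intensity from Agilent Feature Extraction 11.5.1.1. Its processed signal is background-subtracted but not scaled between arrays. Yes or no marks per spot are other columns of the deposited files. The authors' deposited value table equals that intensity times a constant for each array, from 1.64 to 2.42; what set the factors stays unknown. The number of arrays limits the precision.

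After control spots had been left out, the 75th percentile of each array was subtracted from its log2 processed signal. Outlier spots were left out after that step. A probe was kept if some group had it well above background on both arrays. Accessions were named through a RefSeq table (GRCm38.p6, names and gene order only, mm9 being the build of the probe annotation), and 32994 of 56605 probes were named. The probe with the highest mean stood for a symbol, giving 27412 features. limma 3.58.1 in R 4.3.3 fitted all 6 arrays with a coefficient per group, with 3 residual and 2.62 prior degrees of freedom. Tests were two-sided, Benjamini-Hochberg adjustment ran over every feature, and the code was tested on simulated data. Values after ± are standard errors. For a bound, the brighter group's mean was divided by the dimmer group's mean after each dim array's value had been raised, where lower, to the faintest signal that was well above background there. Upstream windows were searched and aligned with Python 3.11.15 and Biopython 1.88, and figures drawn with matplotlib 3.10.9.

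Every member is named. From each of the 4 other pathway lists, genes called and otherwise the 2 with the smallest p in the comparison of both Epcam-derived groups with Albumin-derived are named, and the 5 genes nearest the member median profile. Gsta2, Gstp2, Gstm5, Gsto2, Ptges, Gclc, Gss, Nfe2l2, Ggt5, Ggt7, Dpep1 and the pericentral markers given singly were named after their values were seen. Alternatives were normexp (on median spot and background signal, the mean signal not being used here), quantile and median scaling, the authors' value table, 2 other filters on dim probes, the mean of probes, features with a symbol only, an intensity trend, fewer arrays in the fit, slide, replicate number and each array left out.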

Additional observations from a re-analysis of the deposited data

How the results depend on the processing

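The number of features called depended strongly on the setting, and the members seldom passed. In the order without CLC against Albumin-derived, with CLC against Albumin-derived, and both Epcam-derived groups against Albumin-derived, the main counts were 67, 17 and 223. They became 135, 66 and 369 with normexp. The first 2 became 102 and 66 with quantile normalization and 106 and 35 with median scaling. All 3 became 1, 1 and 7 with no filter on dim probes, which tested 45608 features, and 0, 0 and 0 with slide as a block. Within slide 1 the count with CLC against Albumin-derived was 0. With only the arrays compared the first 2 were 16 and 0. The count without CLC became 110 with the mean of probes. The first and last became 129 and 688 in the authors' value table, 32 and 131 with a filter on all 6 arrays, and 40 and 73 with symbols only. The last 2 became 39 and 338 with an intensity trend. Leaving out 1 array gave 0 to 16, 0 to 0 and 0 to 53. The cause was not tested.

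With the replicate number as a block the 3 counts were 11, 0 and 67, and no call of a member changed. The labels do not say that a number pairs tumours. Deviations of same-numbered arrays correlated at -0.16, 0.06 and 0.23 between the pairs of groups. With the Albumin-derived numbers exchanged, chosen after seeing the data, 96 features and 0 members were called without CLC.

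For both Epcam-derived groups 1 member was called with normexp (Gsta3, 1.09, limma adjusted p = 0.0498) and 1 in the authors' value table (Mgst3). The member median without CLC was 1.54 with quantile normalization and 0.74 to 1.65 with 1 array left out. With 1 array left out it was 0.49 to 1.12 with CLC against Albumin-derived, and 0.68 to 1.25 for both Epcam-derived groups. With against without CLC it was -0.62 to 0.18, the last without Epcam-derived replicate 2 without CLC. In that comparison leaving out 1 array gave -1.75 to 0.42 for Gsta4, -0.79 to 0.25 for Gstm2, -0.21 to 0.28 for Gstm3, -1.001 to 0.34 for Gstm4, -1.14 to 0.21 for Gstm6 and -0.87 to 0.60 for Mgst3, and Gstm3 was -0.0076 with normexp and -0.21 both within slide 2 and when slide was a block. Leaving out 1 array gave Gstm3 -0.073 to 0.62, -0.038 to 0.65 and -0.056 to 0.64, and Gstt1 -0.48 to 0.17, -0.10 to 0.99 and -0.13 to 0.42, in the order of the 3 counts. Gstt1 without CLC was 0.15 with quantile normalization, 0.16 in the authors' value table and 0.94 with slide as a block. The median of all features without CLC was 0.37 in the authors' value table and -0.16 with normexp.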

Other observations

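Outside the lists, the genes whose 6-array profile lay nearest to the member median were Hgd, an enzyme of tyrosine breakdown, at a root mean square log2 distance of 0.124, then Ubap1 (0.132), the mitochondrial deacetylase Sirt3 (0.142), the olfactory receptor gene Olfr1350 (0.157) and Mycbp (0.161). Hgd centred on its own mean stood at -0.58 and -0.86 in Albumin-derived replicates 1 and 2, 0.04 and 0.96 without CLC, and 0.32 and 0.12 with CLC. Among the members only Gstm2 (0.0833) lay nearer, and the profile is drawn from the members themselves.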
